A study of Homo sapiens with 8 samples.

Results

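The comparison described is that of A549 cells with and without glucose after transfection with a control small interfering RNA (siRNA), measured on 4 of the 8 arrays of the series. Its members are the 2 arrays labelled as control siRNA with glucose and the 2 labelled as control siRNA without glucose, and every gene that the array annotation ties to a probe set of its own. A549 is an established line of human lung adenocarcinoma, so the results come from 1 line. Both groups were transfected with DharmaFECT 1, kept for 36 h with 10% serum that had been dialyzed, which takes out sugars and other small molecules, and then moved to DMEM with or without glucose and the same serum. How long this last medium was left on the cells is not stated in the labels, and no untransfected cells are among the groups. The other 4 arrays, from cells with siRNA against SRC-1 (the coactivator encoded by NCOA1) in the same 2 media, served only to estimate the spread between arrays.

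Of 54675 probe sets on the array, 41091 carried 1 gene, and 13587 genes passed a filter on dim signals. Values are log2 signals, and a difference is the mean with glucose minus the mean without, ± its standard error (SE), with n = 2 arrays per medium throughout. A gene is called when its adjusted p in a limma fit is under 0.05 (Benjamini-Hochberg over all 13587 genes). The labels call the arrays biological replicates but do not say whether their cultures were separate, so p measures only the spread between these arrays. Log2 signals of the 2 arrays of a group correlated at 0.997 to 0.998 across genes. All 6 epithelial markers lay above the filter, and 2 of them were higher with glucose and 1 lower, with differences from -0.38 to 0.57. The log2 of their summed signals, in which the brightest marker weighs most, was 15.30 and 15.29 without glucose and 15.30 and 15.31 with it. All 5 markers of the A549 line lay above the filter too, and 3 of them were higher with glucose, GPX2 of glutathione peroxidation by 0.92 ± 0.065. Of 16 markers of other cell types with a probe set, 8 lay below the filter, PTPRC of leukocytes, CDH5 and KDR of endothelium and COL1A2 of fibroblasts among them, and 8 above it, namely 4 of 7 for fibroblasts, 2 of 4 for immune cells and 2 of 5 for endothelium. Of the 8 above it, LUM of fibroblasts was called, higher with glucose, with 5.43 and 5.27 with glucose and 4.74 and 4.68 without it (0.64 ± 0.15). Its call was lost without replicate 2 without glucose or replicate 1 with it (adjusted p up to 0.056, limma), and the part of such cells in the results was not tested. The log2 of the summed signals of the immune markers was 6.65 and 6.62 without glucose and 6.50 and 6.88 with glucose. For the endothelial markers this sum was 7.23 and 7.14 without glucose and 7.24 on both arrays with glucose. For the fibroblast markers it was 8.62 and 8.67 without glucose and 8.66 and 8.63 with glucose. The 3' minus 5' signal of GAPDH was 0.12 and 0.14 without glucose and 0.16 and 0.17 with it, and that of ACTB was 0.41 and 0.52 without and 0.64 and 0.52 with it.

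Cells short of glucose have less sugar for energy and less of the sugar nucleotides from which protein glycans are made. Unfolded protein in the endoplasmic reticulum (ER) is sensed by IRE1, PERK and ATF6, which start the unfolded protein response and raise ER chaperones. PERK is also a kinase of the initiation factor eIF2, and phosphorylated eIF2 favours translation of ATF4, the central factor of the integrated stress response, which raises genes of amino acid supply. In the opposite direction, E2F factors switch on the genes of DNA synthesis when cells pass from G1 into S phase.

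In these cells 6125 genes (45.1%) were called, 3207 higher with glucose (23.6%) and 2918 lower (21.5%), so that a list with a called share near 45.1% shows no more than the genes at large. The falls reached further than the rises. At least 2-fold differences were found for 290 genes higher (2.13%) and 292 lower (2.15%), at least 4-fold for 12 higher and 51 lower, and at least 8-fold for 0 higher and 7 lower. The 7 were HSPA6, DDIT3, NIBAN1, RAB39B, ATF3, BEX4 and BEX2. Most calls were small, with 2139 of the higher and 1976 of the lower genes under 1.5-fold. The median difference over all genes was 0.002. Calls were rarer among dim genes, at 18.2% of the 2718 dimmest genes against 55.3% of the 2718 brightest. The arrays of the 2 media did not overlap for 9746 genes (71.7%), all called genes among them. Of the 7462 genes not called, 7200 had a 95% interval within 1.5-fold in either direction.

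**Figure D1:**
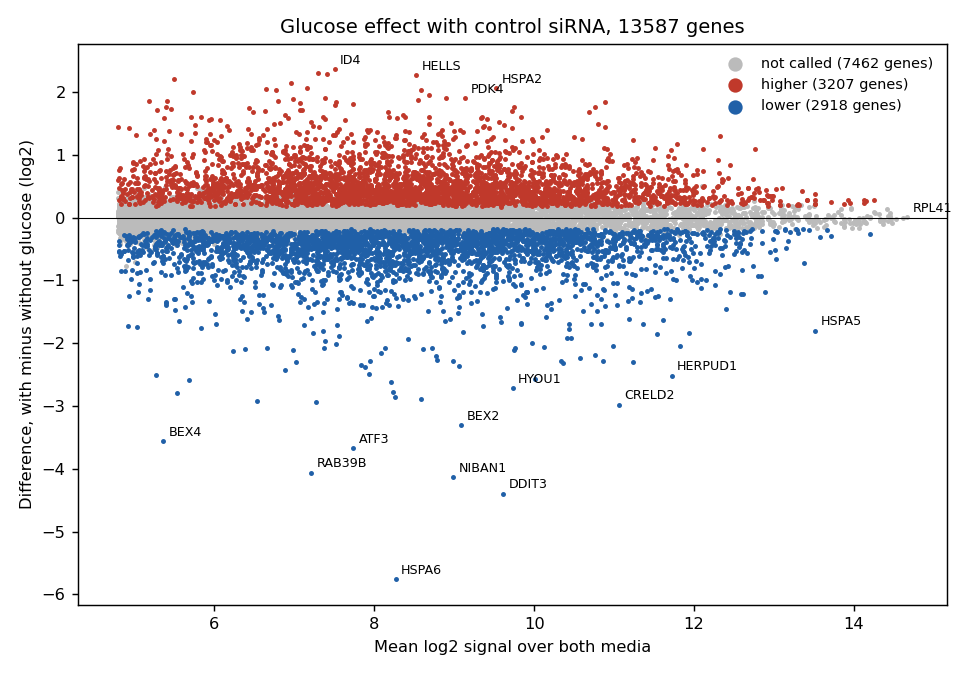
Difference with minus without glucose (log2) against mean log2 signal for each of 13587 genes, with 3207 called higher in red, 2918 called lower in blue and 7462 not called in grey. The longest falls, such as HSPA6 (-5.76) and DDIT3 (-4.40), lie well beyond the longest rise, ID4 (2.36).

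Promoter windows of 300 bases (250 before and 50 after the start, RefSeq, build GRCh38.p14) were at hand for 10917 of the tested genes. The ER stress element, CCAAT and CCACG with 9 free bases between them, on either strand, bound by ATF6 together with NF-Y, comes first. It stood in 22 of all 27305 windows (0.0806%) and in 14 of those of tested genes, and of these 14 genes 13 were lower with glucose, 0 higher and 1, GLRA2, not called. Among all tested genes with a window, 21.8% were lower and 24.4% higher. The sites below are those of lower genes, shown because the motif and the difference went together, with the fixed bases in capitals and the free spacer in lower case. Each is read 5' to 3' along the strand that holds the motif, and each match is a description of letters, not of binding.

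HSPA5: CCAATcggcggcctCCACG
HSP90B1: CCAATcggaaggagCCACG
HSP90B1, other strand: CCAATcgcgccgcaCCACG
CALR: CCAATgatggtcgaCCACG
CANX: CCAATcttcacactCCACG
CRELD2 and ALG12: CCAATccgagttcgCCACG
ERO1B: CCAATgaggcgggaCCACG
FICD: CCAATgggagtggcCCACG
XBP1: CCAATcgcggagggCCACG
SERP1 and EIF2A: CCAATtcgctgtctCCACG
TMEM120A: CCAATggggaaaggCCACG
TRIM5: CCAATggcatttctCCACG

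CRELD2 and ALG12 are neighbours that share a single site, read from opposite strands, and so are SERP1 and EIF2A, so these pairs are not independent of each other. The differences ran from -2.98 for CRELD2, a disulfide isomerase of the ER, through -1.94 for ERO1B, which reoxidizes such enzymes, -1.80 for FICD, which AMPylates HSPA5, and -1.62 for XBP1, to -0.46 for the mannosyltransferase ALG12, -0.44 for the antiviral factor TRIM5 and -0.29 for TMEM120A. The last 3 calls were weak, since for each of them leaving out 2 of the 4 arrays, singly, ended the call (adjusted p up to 0.0613 for ALG12, 0.0914 for TRIM5 and 0.0962 for TMEM120A, limma). Within the sharing pairs the differences were alike for SERP1 (-0.78) and EIF2A (-0.82), less than an SE apart, and far apart for CRELD2 and ALG12 (-2.98 and -0.46). The second form of the element, ATTGG and CCACG with 1 free base between them, stood in 14 tested genes, of which 5 were lower, 2 higher and 7 not called. The 5 were HYOU1 (-2.72), SDF2L1 (-2.57), HERPUD1 (-2.52), the Golgi calcium-binding protein NUCB1 (-1.27) and the checkpoint protein RAD9A (-0.52), and the 2 higher were the glycogen synthase GYS1 (0.48) and SHCBP1 (0.34), whose call was lost without replicate 1 without glucose or replicate 2 with it (adjusted p up to 0.147, limma).

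The 250 bases before the start are given for 4 genes, 1 for each of the motifs on which later paragraphs turn, on the minus strand in each case and in the direction of the gene. Capitals mark the ER stress element in HSPA5, both copies of its second form in HYOU1, the C/EBP-ATF response element in ASNS and overlapping E2F sites in MCM6.

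HSPA5, chr9:125241344-125241593: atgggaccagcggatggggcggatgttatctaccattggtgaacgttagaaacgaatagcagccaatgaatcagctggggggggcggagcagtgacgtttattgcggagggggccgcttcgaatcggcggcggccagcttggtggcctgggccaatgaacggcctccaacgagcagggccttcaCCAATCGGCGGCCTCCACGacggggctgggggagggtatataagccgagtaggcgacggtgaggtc
HYOU1, chr11:119057206-119057455: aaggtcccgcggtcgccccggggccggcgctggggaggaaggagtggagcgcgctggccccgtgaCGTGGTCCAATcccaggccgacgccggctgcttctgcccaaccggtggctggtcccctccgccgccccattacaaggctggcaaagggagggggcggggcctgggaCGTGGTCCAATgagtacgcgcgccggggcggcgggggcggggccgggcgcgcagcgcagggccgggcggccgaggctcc
ASNS, chr7:97872409-97872658: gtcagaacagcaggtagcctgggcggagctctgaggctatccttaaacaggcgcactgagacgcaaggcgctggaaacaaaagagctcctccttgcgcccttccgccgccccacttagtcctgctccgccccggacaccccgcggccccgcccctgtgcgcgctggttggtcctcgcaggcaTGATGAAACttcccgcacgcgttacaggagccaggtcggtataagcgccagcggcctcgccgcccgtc
MCM6, chr2:135876444-135876693: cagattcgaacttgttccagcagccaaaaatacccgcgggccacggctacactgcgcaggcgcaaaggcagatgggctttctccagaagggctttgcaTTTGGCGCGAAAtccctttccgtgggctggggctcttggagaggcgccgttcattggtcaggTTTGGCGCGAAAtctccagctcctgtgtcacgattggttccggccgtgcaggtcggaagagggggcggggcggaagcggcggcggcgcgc

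The sensors of ER stress were themselves lower with glucose. Of 11 tested sensors and their transcription factors, 8 were lower and 0 higher, with a median of -0.66 against 0.002 over all genes. ERN1, which encodes IRE1, read 9.18 and 8.96 without glucose and 6.76 and 6.63 with it. The groups lay far apart, with a difference of -2.38 ± 0.11 (adjusted p = 2.01e-06, limma). A dimmer probe set of ERN1 gave -1.41, and it became the brightest, with -1.36 and -1.46, when replicate 1 or 2 without glucose was left out. XBP1, whose mRNA is spliced by IRE1, read 9.67 and 9.86 without glucose and 7.99 and 8.29 with it, a difference of -1.62 ± 0.13. EIF2AK3, the gene of PERK, read 10.12 and 10.10 without glucose and 9.06 and 9.15 with it (-1.01 ± 0.071), and ATF6 read 8.87 and 8.76 without glucose and 8.23 and 8.10 with it (-0.66 ± 0.09). The arrays without glucose were the higher ones for all of these, with no overlap. ATF6B fell less (-0.34 ± 0.098), and 3 of the 4 arrays, left out in turn, ended its call (adjusted p up to 0.15, limma). Among the relatives of ATF6 on the ER membrane, CREB3L4 (-0.91), CREB3 (-0.67) and CREB3L2 (-0.66) were lower and CREB3L1 was not called (-0.21, 95% interval -0.53 to 0.11). The Golgi proteases that cut ATF6 were not called, at -0.05 for MBTPS1 (-0.23 to 0.12) and 0.12 for MBTPS2 (-0.03 to 0.28). The array measures transcripts as a whole, so splicing of XBP1 and cutting of ATF6 were not analysed here.

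Of 30 ER chaperones and disulfide isomerases, 28 were lower with glucose and 1 higher, with a median of -1.06. The HSP70 of the ER and its helpers formed the deep end. HSPA5 (BiP) read 14.42 and 14.41 without glucose and 12.61 and 12.62 with it, a 3.48-fold lower mean with glucose. The levels without glucose lay close to the highest value on any of the arrays (14.7), where signals may be compressed, so the true fold may be larger. HYOU1, its nucleotide exchange factor, read 11.11 and 11.07 without glucose and 8.37 and 8.38 with it (-2.72 ± 0.063), and DNAJB9, a J-protein that also holds IRE1 in check, read 12.03 and 11.97 without glucose and 9.78 and 9.65 with it (-2.29 ± 0.089). Other J-proteins and partners of HSPA5 fell alike, with -1.86 for DNAJB11, -1.77 for DNAJC3, -2.57 for SDF2L1 and -1.83 for MANF. HSP90B1, the HSP90 of the ER, differed by -1.69. The lectin chaperones of glycoproteins, CALR (-0.89) and CANX (-0.51), and the disulfide isomerase P4HB (-0.77) fell less than PDIA4 (-2.04). TXNDC12 was not called (-0.07), and SDF2, a paralogue of SDF2L1, was the 1 member higher with glucose (0.64 ± 0.068). SDF2 read 9.86 and 9.78 with glucose and 9.14 and 9.23 without it, so that these paralogues lay on opposite sides.

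Genes of the route that retrieves misfolded protein from the ER for the proteasome were lower in part. Of 24 genes of ER-associated degradation, 13 were lower, 3 higher and 8 not called (median -0.27). SEL1L, the scaffold of the HRD1 ubiquitin ligase, read 11.72 and 11.66 without glucose and 9.96 and 10.01 with it (-1.70 ± 0.071). Its partners HERPUD1 (-2.52), DERL2 (-1.29), SELENOK (-1.70) and SELENOS (-1.12) and the lectins EDEM1 (-1.23), OS9 (-0.57) and ERLEC1 (-0.66) were lower as well. UBE2G2, a ubiquitin-conjugating enzyme of this route, was higher (0.59 ± 0.1), and AUP1, which recruits it to the membrane, was not called (-0.18, 95% interval -0.35 to -0.01).

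Genes that build and transfer N-glycans were mixed, with 15 lower, 3 higher and 12 not called among 30 (median -0.22). The first step on the lipid carrier, DPAGT1 (-0.87), and NUS1, a subunit of the enzyme that makes the carrier dolichol (-0.82), were lower, while ALG6, which adds the first glucose to the glycan, was higher (0.61 ± 0.065), as were the dolichol kinase DOLK (0.40) and ALG14 (0.37). Of 10 subunits of the oligosaccharyltransferase, which moves the finished glycan onto protein, 8 were lower and 0 higher, between -1.02 (MAGT1) and -0.15 (TUSC3, not called). Among 14 genes of glycan trimming, 9 were lower, led by UGGT2 (-1.25) and UGGT1 (-0.92), the glucosyltransferases that mark unfolded glycoproteins for another round of folding.

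Genes of entry into the ER and of traffic between ER and Golgi were mostly lower with glucose, by less than the chaperones (median -1.06). Of 24 genes of the translocon and of signal peptide processing, 15 were lower and 0 higher (median -0.29). All 4 subunits of the translocon-associated TRAP complex were lower, and SSR3, the lowest of them, read 12.70 and 12.60 without glucose and 11.65 and 11.65 with it. The channel gene SEC61A1 (-0.73), SEC63 (-0.87) and the signal peptidase subunit SEC11C (-1.16) were lower too. Of 37 genes of vesicle traffic between ER and Golgi, 26 were lower and 2 higher (median -0.41). The COPII coat, which carries the traffic out of the ER, was mixed. Of 10 genes of this coat and its GTPases, 5 were lower, 2 higher and 3 not called (median -0.23). SEC24D, a cargo adaptor of the COPII coat, read 8.87 and 9.15 without glucose and 6.53 and 6.81 with it (-2.34 ± 0.14), whereas its relative SEC24B was higher, with 9.92 and 9.84 with glucose and 9.40 and 9.47 without it (0.44 ± 0.086). The large-cargo receptors MIA2 (-1.34) and MIA3 (-1.26) and KDELR3 (-0.86), which returns escaped chaperones, were lower. In the COPI coat, which carries the return traffic, 7 of 8 subunits were lower, between -0.91 and -0.24.

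Among the transcription factors of the integrated stress response were DDIT3 and ATF3, which both fell by more than 8-fold. Of 19 factors and kinases, 14 were lower and 4 higher with glucose (median -0.98). DDIT3 (CHOP) read 11.88 and 11.75 without glucose and 7.30 and 7.52 with it, a 21.2-fold lower mean with glucose (-4.40 ± 0.086, adjusted p = 1.11e-07, limma). ATF3 read 9.61 and 9.54 without glucose and 5.84 and 5.97 with it (-3.67 ± 0.11). ATF4, which is controlled mainly through its translation, differed far less at the transcript, with 12.79 and 12.77 without glucose and 11.86 and 11.90 with it (-0.90 ± 0.061). Its partner CEBPG read 11.44 and 11.39 without glucose and 9.45 and 9.55 with it (-1.91 ± 0.087). ATF5, a close relative of ATF4, was higher with glucose, with 7.97 and 8.06 with glucose and 7.38 and 7.32 without it (0.67 ± 0.094), so the relatives lay on opposite sides with no overlap in either. Both feedback arms were lower, namely PPP1R15A, the stress-induced subunit that directs eIF2 dephosphorylation (-2.49 ± 0.09), and TRIB3, which inhibits DDIT3 and ATF4 (-1.63 ± 0.069). The constitutive counterpart PPP1R15B fell by little (-0.33 ± 0.08) and was not called without replicate 2 without glucose or replicate 1 with it (adjusted p up to 0.0699, limma). The stress factor NUPR1 (-2.09), the glutathione-degrading enzyme CHAC1 (-1.56) and CEBPB (-0.98) were lower, and CEBPD was higher (0.70 ± 0.1).

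The eIF2 kinases were split. EIF2AK3 (PERK) was lower, as given above, EIF2AK2 (PKR, 0.69 ± 0.098) and EIF2AK4 (GCN2, 0.33 ± 0.12) were higher, and EIF2AK1 (HRI) was not called on its brightest probe set (0.07) and higher on another (0.87). The call of EIF2AK2 was lost without replicate 1 with glucose (0.30, where another probe set was the brightest), and that of EIF2AK4 was lost without any of the other 3 arrays (adjusted p up to 0.249, limma). The sestrins, which restrain mTORC1, were split in the same manner. SESN2 read 8.26 and 8.47 without glucose and 6.35 and 6.44 with it (-1.97 ± 0.11, and as little as -1.55 with an array left out). SESN3 read 6.22 and 6.44 with glucose and 5.33 and 5.50 without it (0.92 ± 0.097), and SESN1 was higher (0.54 ± 0.079). Of the GADD45 genes, GADD45A (-2.19 ± 0.074) and GADD45B (-1.18 ± 0.094) were lower and GADD45G was not called (-0.15). DDIT4, another mTORC1 inhibitor, was lower (-0.59 ± 0.064).

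**Figure D2:**
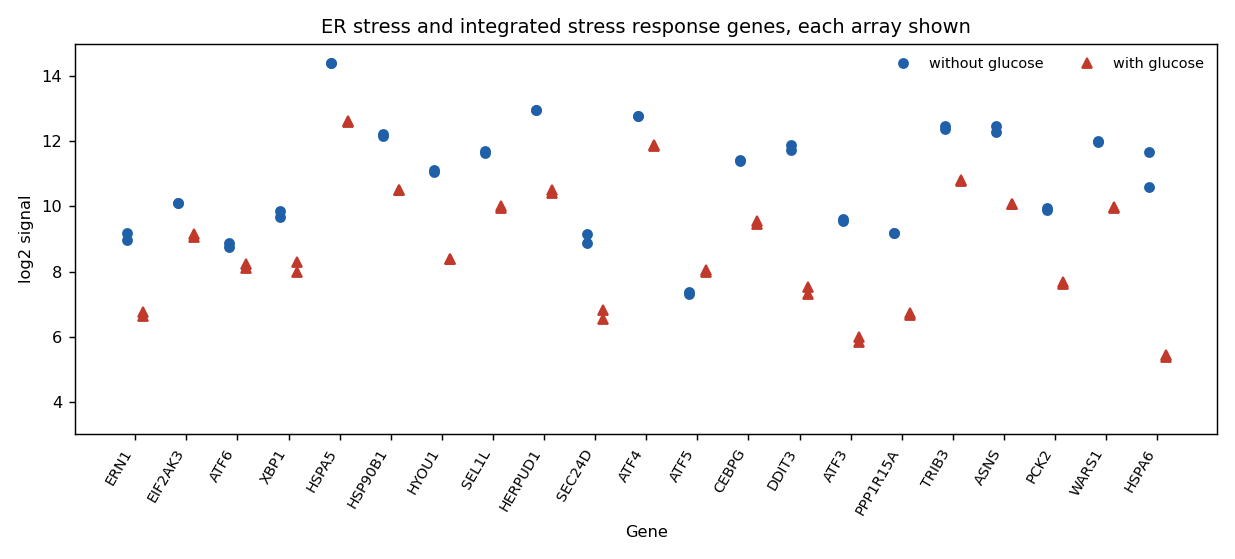
Log2 signal (y axis) of genes of the ER stress and integrated stress responses (x axis) on each of the 2 arrays without glucose (blue circles) and the 2 with glucose (red triangles). The blue circles lie above the red triangles for all genes drawn except ATF5, and HSPA6 shows the widest gap between the arrays of a medium.

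Genes of amino acid supply followed the factors above in part. ASNS, which makes asparagine, read 12.30 and 12.47 without glucose and 10.09 and 10.07 with it (-2.30 ± 0.073), and PCK2, the mitochondrial PEP carboxykinase, read 9.94 and 9.89 without glucose and 7.68 and 7.62 with it (-2.27 ± 0.064). BCAT1 (95% interval -2.19 to -1.81), GOT1 (-1.45) and PYCR1 (-1.25), enzymes of branched-chain amino acids, aspartate and proline, were lower, and so were ASS1 (95% interval -1.15 to -0.86) and ASL (-0.91) of arginine synthesis. Glutamine synthetase, GLUL, was higher (0.70 ± 0.1), while BCAT2, the mitochondrial counterpart of BCAT1 (0.09), and PYCR3, a relative of PYCR1 (-0.04), were not called. In all, 7 of 16 such enzymes were lower and 3 higher.

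In serine synthesis, PHGDH (-1.49 ± 0.075), PSAT1 (-0.93 ± 0.097) and PSPH (-0.41 ± 0.095), which act in sequence, were all lower. The call of PSPH was lost without replicate 2 without glucose or replicate 1 with it (adjusted p up to 0.0564, limma). In one-carbon metabolism the mitochondrial enzymes ALDH1L2 (-2.92 ± 0.14), MTHFD2 (-1.18 ± 0.092) and SHMT2 (-0.98 ± 0.072) were lower. Of their cytosolic counterparts, SHMT1 (0.36 ± 0.075) and MTHFD1 (0.33 ± 0.069) were higher, and that of ALDH1L2 was not called (-0.18). Among 21 amino acid transporters, 8 were lower, 4 higher and 9 not called. SLC1A4 (-1.36), which carries serine and alanine, SLC3A2, the shared heavy chain of several exchangers (95% interval -1.15 to -0.86), and the arginine carrier SLC7A1 (-0.90) were lower. Of the light chains that pair with SLC3A2, SLC7A6 was higher (1.27 ± 0.13), while SLC7A5 (0.05, 95% interval -0.09 to 0.19) and the cystine carrier SLC7A11 (-0.17, -0.35 to 0.01) were not called, although SLC7A11 was lower in the mean of its probe sets (-0.38).

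The enzymes that charge tRNA differed by compartment. Of 18 cytosolic synthetases and cofactors, 13 were lower and 2 higher (median -0.56), whereas of 15 mitochondrial ones 2 were lower and 3 higher (median -0.02). The difference between the compartments was not tested. WARS1, for tryptophan, read 12.02 and 11.99 without glucose and 9.98 and 9.95 with it (-2.04 ± 0.062), and SARS1 (-1.48), AARS1 (-1.28) and CARS1 (-1.26) followed. GARS1, which serves both compartments, was lower (-1.22). RARS1, for arginine, was higher (0.43), and KARS1 was not called (0.01).

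The C/EBP-ATF response element, TGATGNAAN, stood in 1.91% of the windows of tested genes. Its share was 5.91% among genes at least 2-fold lower and 0.422% among genes at least 2-fold higher, and over all tested genes that hold it 23.9% were lower and 19.6% higher, close to the 21.8% and 24.4% of all tested genes with a window. Of 15 cytosolic tRNA synthetases with a window, 5 held it, namely AARS1, CARS1, IARS1, NARS1 and TARS1, and all 5 were lower. ATF3, CHAC1, ASNS, BCAT1, GOT1, SLC3A2, SLC7A1, SLC38A1 and PPP1R15B held it as well and were all lower. None of 13 genes of serine and one-carbon metabolism with a window held it.

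Among 40 translation factors, 20 were lower and 6 higher (median -0.17). EIF4EBP1, an inhibitor of cap-dependent initiation, was lower (-1.05 ± 0.075) and its paralogue EIF4EBP2 higher (0.97 ± 0.098). Of 12 subunits of eIF3, 9 were lower and 0 higher, all by small amounts (-0.38 to -0.20 for those called). Of 18 host transcripts of small nucleolar RNAs, 4 could be tested and all 4 were lower, with ZFAS1 at -1.45 ± 0.081 and EPB41L4A-AS1 at -2.10 ± 0.086. Ribosomal proteins were seldom called. Of 41, 5 were lower and 0 higher, a called share of 12.2%, below the 45.1% of all genes, and the largest fall was RPL3 (-0.31 ± 0.065). They lay near the top of the scale, with a median level of 13.84 and 37 of them at 13 or more, where small differences may be compressed. Of the 122 other genes at that level, 34.4% were called. Of 32 genes of ribosome biogenesis, 6 were higher and 6 lower, with UBTF, a factor of ribosomal RNA transcription, at 0.96 ± 0.11.

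The heat shock proteins, most of which act outside the ER, went both ways. HSPA6, an HSP70 that is strictly stress-inducible, read 10.61 and 11.69 without glucose and 5.42 and 5.37 with it. The arrays without glucose lay apart (SD 0.77), and both stood far above the arrays with glucose (-5.76 ± 0.29, adjusted p = 3.67e-06, limma). A nearly identical pseudogene, HSPA7, may be read by the same probes. HSPA2, an HSP70 known best from the testis, moved the other way, with 10.52 and 10.59 with glucose and 8.42 and 8.57 without it (2.06 ± 0.075). HSPA4, of the HSP110 type (0.55), the J-proteins DNAJA1 (0.76) and DNAJB6 (0.72) and HSPE1, a co-chaperonin of mitochondria (0.50), were higher, and HSPA13, an HSP70 of the microsomal fraction, was lower (-1.31). Without replicate 1 without glucose DNAJA1 stood at 0.48, DNAJB6 at 0.45 and HSPE1 at 0.33. The small heat shock proteins HSPB1 (-0.02, 95% interval -0.27 to 0.22) and HSPB8 (-0.08, -0.26 to 0.11) were not called. In all, 11 of 25 were higher and 5 lower. HSPA1A, HSPA1B, HSPA8, HSF2 and AHSA1 had no probe set tied to them alone and were not tested. Of 34 proteasome subunits, 10 were higher and 5 lower, a called share of 44.1% that lies close to the 45.1% of all genes, and 11 of 13 subunits of the 20S core were not called.

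Of 38 autophagy genes, 19 were lower with glucose and 4 higher (median -0.19). WIPI1, which binds the lipid of the forming autophagosome, read 10.10 and 10.16 without glucose and 7.78 and 7.91 with it (-2.28 ± 0.097), and MAP1LC3B, the classic membrane mark, read 11.58 and 11.58 without glucose and 10.19 and 10.16 with it (-1.40 ± 0.066). The initiating kinase ULK1 (-0.70) and its partner ATG13 (95% interval -1.16 to -0.85) were lower, and PIK3R4, a subunit of the lipid kinase, was higher (0.93 ± 0.098). Genes of cell death went both ways. The BH3-only gene PMAIP1 (-1.59 ± 0.074) and the TRAIL receptor TNFRSF10B (-0.71 ± 0.062) were lower with glucose, while APAF1, the core of the apoptosome (1.55 ± 0.14, with 0.03 on a further probe set), CASP2 (1.06 ± 0.073) and CASP6 (0.72 ± 0.085) were higher. BAK1 (-0.04) and CASP8 (-0.05) were not called. Over the list, 12 of 33 were lower and 6 higher, a called share of 54.5% against 45.1% of all genes.

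With glucose, the genes that carry cells into and through S phase were higher. The activators E2F1 (0.60 ± 0.12), E2F2 (2.04 ± 0.16) and E2F3 (0.31 ± 0.066) and the late repressors E2F7 (0.69 ± 0.089) and E2F8 (2.28 ± 0.09) were higher. E2F8 read 8.52 and 8.59 with glucose and 6.39 and 6.15 without it, and E2F2 read 7.79 and 7.78 with glucose and 5.81 and 5.68 without it. The further tested probe set of E2F2 was not called. E2F5 was lower (-0.41 ± 0.064), and E2F4 (-0.03) and E2F6 (-0.14) were not called. Their partner TFDP1 (0.80) and the pocket protein RBL1 (1.14) were higher. Of the G1 cyclins, CCNE2 read 8.39 and 8.52 with glucose and 5.98 and 6.30 without it (2.31 ± 0.11), CCNE1 was higher by less (0.99 ± 0.077), and so were CCND3 (1.28 ± 0.061) and CCND1 (0.50 ± 0.081). The kinase CDK2 (1.49 ± 0.079), the activating phosphatase CDC25A (1.72 ± 0.12) and SKP2, which leads the inhibitor p27 to degradation (1.90 ± 0.08), were higher. The inhibitors CDKN1B (p27, -0.41 ± 0.085) and CDKN1A (p21, -0.35 ± 0.062) were lower.

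Of 50 genes of replication licensing and fork progression, 43 were higher and 0 lower, with a median of 0.87. All 6 subunits of the MCM2-7 helicase were higher, between 1.35 and 1.84, a narrow range with MCM6 at the top, and so were all 4 of the GINS complex, between 0.87 and 1.69. MCM6 read 11.77 and 11.84 with glucose and 9.89 and 10.04 without it. MCM10 read 9.64 and 9.70 with glucose and 7.63 and 7.79 without it (1.96 ± 0.073). Of 6 subunits of the origin recognition complex, 3 were higher, ORC1 (1.71 ± 0.085), ORC6 (0.99 ± 0.073) and ORC3 (0.26 ± 0.082), and the others were not called. ORC3 was not called without any single one of the 4 arrays (adjusted p up to 0.129, limma). The loader CDT1 was higher (1.63 ± 0.098), but its partner in licensing, CDC6, was not called (-0.14 ± 0.075, 95% interval -0.31 to 0.03). CDC6 read 9.75 and 9.84 without glucose and 9.58 and 9.73 with it, so the groups lay close together. At the fork, the clamp PCNA (1.30 ± 0.073) and the flap nuclease FEN1 (1.76 ± 0.085) were higher. The E2F site, TTTNGCGC, stood in 2.79% of the windows of tested genes, in 9.7% of those of genes at least 2-fold higher and in 2.53% of those at least 2-fold lower. Of 43 replication genes with a window, 16 held it, CDC6 among them, and in MCM6 it occurred 4 times, in overlapping matches on both strands. Of all 305 tested genes that hold it, 33.1% were higher against 24.4% of all tested genes with a window.

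Genes of deoxynucleotide supply were higher in part. RRM2, the S-phase subunit of ribonucleotide reductase (1.10 ± 0.061), TYMS (0.84 ± 0.066) and DCK (0.89 ± 0.077) were higher, while CTPS1, which makes CTP, was lower (-1.14 ± 0.07), as were IMPDH2 of GTP synthesis (-0.55 ± 0.077) and GART of purine synthesis (-0.51 ± 0.077). Of 25 genes of nucleotide synthesis, 15 were higher and 5 lower. Genes for the repair of forks and breaks were mostly higher, with 23 of 33 higher and 2 lower (median 0.50). The helicase BRIP1 read 8.41 and 8.28 with glucose and 6.40 and 6.48 without it (1.90 ± 0.071), and the nuclease EXO1 (1.80), FANCM (1.70), BARD1 (1.37) and BRCA1 (0.88) were higher. The nuclease MUS81 (-0.66 ± 0.09) and FANCF (-0.42 ± 0.065) were lower, and the kinase ATM was not called (-0.19). Of 24 genes of DNA methylation maintenance and chromatin assembly, 21 were higher and 2 lower (median 0.60). The remodeller HELLS read 9.62 and 9.70 with glucose and 7.34 and 7.44 without it (2.27 ± 0.13), with 1.99, 1.48 and 1.11 on its other called probe sets. Without replicate 1 or 2 with glucose the last of these was the brightest, at 1.20 and 1.02. UHRF1, which guides DNMT1 to new DNA, read 10.59 and 10.59 with glucose and 9.24 and 9.49 without it (1.22 ± 0.087), and DNMT1 itself differed by less (0.54 ± 0.079). The relatives UHRF2 (-0.21 ± 0.071) and DNMT3A (-0.27 ± 0.092) were lower, but leaving out any of 4 and 3 arrays, respectively, ended their calls (adjusted p up to 0.155 and 0.215, limma).

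Genes of G2 and mitosis were higher too, with 55 of 63 higher and 0 lower, though by less than the replication genes (median 0.58 against 0.87, a difference not tested). KIF11, the motor that separates spindle poles, read 10.30 and 10.21 with glucose and 8.93 and 9.12 without it (1.23 ± 0.085), and CCNA2 (1.02), AURKA (0.93), CDK1 (0.78), and FOXM1 (0.56) were higher. CDC20, which starts anaphase (0.12, 95% interval -0.03 to 0.27), and KIF2C, a motor that takes microtubules apart (-0.06, -0.22 to 0.09), were not called. The cell cycle genes homology region, TTTGAA, stood in 64.8% of 54 windows of this list against 9.75% of those of all tested genes. In RNA from whole cultures a larger share of cells in a phase and more RNA per cell in that phase cannot be told apart.

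**Figure D3:**
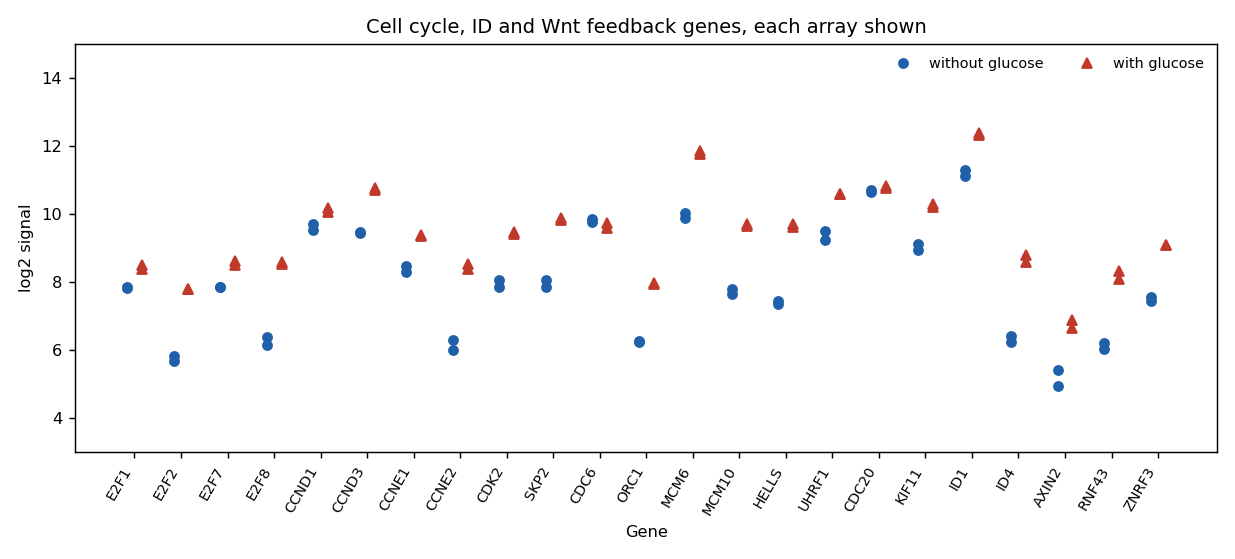
Log2 signal (y axis) of cell cycle, ID and Wnt feedback genes (x axis) on each of the 2 arrays without glucose (blue circles) and the 2 with glucose (red triangles). The red triangles lie above the blue circles for the genes drawn except CDC6 and CDC20, which were not called and whose arrays lie close together.

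The genes that handle glucose did not move as a block. Of the hexokinases, HK2 read 7.27 and 7.32 without glucose and 5.24 and 5.11 with it (-2.12 ± 0.11) and HKDC1 was lower (-1.16 ± 0.074), whereas HK1, which is expressed in most tissues, was higher (0.42 ± 0.1), though not without replicate 1 without glucose or replicate 2 with it (adjusted p up to 0.0686, limma). Among the transporters, SLC2A1 (GLUT1) was not called (-0.15, 95% interval -0.34 to 0.04), SLC2A3 (GLUT3) was higher (0.67 ± 0.095), and so was SLC2A13, which carries myo-inositol (1.03 ± 0.096). Of 16 enzymes after hexokinase, 9 were higher and 0 lower, and none of those higher by more than 0.62. The pyruvate dehydrogenase kinases PDK4, with 10.03 and 10.15 with glucose and 8.22 and 8.15 without it (1.90 ± 0.098), and PDK3 (1.14 ± 0.13) were higher, and the opposing phosphatase PDP1 was lower (-1.16 ± 0.074). Of the 5 tested proteins of the complex they act on, 4 were not called.

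The hexosamine pathway, which turns fructose 6-phosphate into UDP-GlcNAc for glycans, was lower with glucose in 7 of 13 genes and higher in 3. Its first and rate-limiting enzyme GFPT1 read 11.97 and 12.02 without glucose and 10.31 and 10.44 with it (-1.62 ± 0.079), and UAP1, of the last step, was lower (-1.12 ± 0.12). The transferase OGT, which puts GlcNAc on nuclear and cytosolic proteins, and the hydrolase OGA, which removes it, lay on opposite sides. OGT read 11.24 and 11.41 without glucose and 10.40 and 10.32 with it (-0.97 ± 0.089) and OGA read 10.08 and 10.11 with glucose and 8.68 and 8.60 without it (1.45 ± 0.084). A further probe set of OGA was higher by 0.66 and a dim one, the only one without the suffix of probes shared between transcripts, was not called (0.06). In glycogen metabolism, GYS1 was higher (0.48 ± 0.074) and PPP1R3B, which targets a phosphatase to glycogen, was lower (-1.22 ± 0.071). Of 9 tested genes listed as targets of the sugar-responsive factors MondoA and ChREBP, 5 were lower, 3 higher and 1 not called (median -0.28). TXNIP, a gene that glucose is known to raise through MondoA, was not called (-0.22 ± 0.11, 95% interval -0.47 to 0.02). ARRDC3, of the same arrestin family, was higher (0.62 ± 0.1). TXNIP read 6.20 and 6.35 without glucose and 6.06 and 6.05 with it, with the arrays of each medium close together.

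Genes of lipid synthesis were mostly higher with glucose. Of 22 genes of cholesterol synthesis and uptake, 16 were higher and 2 lower (median 0.51), with INSIG1, a sterol sensor, at 1.60 ± 0.15, LSS at 1.22 ± 0.1 and HMGCS1 at 0.96 ± 0.17. STARD4, a sterol carrier, was lower (-0.49 ± 0.069). Of 24 genes of fatty acid and triglyceride synthesis, 14 were higher and 4 lower, with LPIN1 (1.11 ± 0.085), ACACA (0.86 ± 0.11), SCD (0.85 ± 0.073) and FASN (0.76 ± 0.065) higher and the lipid droplet coat PLIN2 lower (-0.47 ± 0.099). The sterol response element, TCACNCCAC, stood in 1 of 20 windows of cholesterol genes, against 1.01% of tested genes.

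Ligands, immediate early factors and secreted stress factors were mostly lower with glucose. All 5 tested ligands of the EGF type were lower, between -1.39 and -0.66, with HBEGF reading 8.38 and 8.73 without glucose and 7.23 and 7.11 with it (-1.39 ± 0.19). The receptor EGFR was lower (-0.92 ± 0.098), and MET, the receptor of another ligand, was not called (-0.04). Downstream of such receptors, the immediate early factor EGR1 read 7.48 and 8.73 without glucose and 5.62 and 5.73 with it (-2.43 ± 0.33), and FOS read 5.79 and 6.97 without glucose and 4.50 and 4.99 with it (-1.64 ± 0.36, and -1.04 without replicate 2 without glucose). As for HSPA6, replicate 2 was the higher of the arrays without glucose. In all, 13 of 20 immediate early and AP-1 factors were lower against 2 higher (median -0.50). The phosphatases that end MAP kinase signals were split, with DUSP5 (-1.69 ± 0.068), DUSP6 (-1.34 ± 0.091) and DUSP1 (-0.84 ± 0.076) lower, DUSP16 higher (0.71 ± 0.073) and DUSP4 not called (-0.01). Of 13 secreted stress factors, 8 were lower and 0 higher. STC2, a glycoprotein hormone, read 9.58 and 9.66 without glucose and 6.79 and 6.91 with it (-2.77 ± 0.079). Its difference shrank to as little as -1.85 with an array left out. The cytokine IL11 (-1.65 ± 0.072), FGF2 (-1.36 ± 0.063), VEGFA (-1.09 ± 0.082) and GDF15 (-0.69 ± 0.067) were lower. Of 28 NF-kappaB genes, chemokines and cytokines, 12 were lower, 2 higher and 14 not called (50% called against 45.1% of all genes). Among the chemokines, CXCL2 (-2.21 ± 0.077) and CXCL8 (-2.07 ± 0.091), which attract neutrophils, were lower. CCL2, which attracts monocytes, was higher (1.03 ± 0.11).

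In the ID and BMP list and in the Wnt list more genes were higher than lower. Of 15 ID factors and genes of the BMP pathway, 9 were higher and 5 lower (median 0.52). All 4 ID genes, which encode inhibitors of basic helix-loop-helix factors and are targets of BMP signals, were higher, and ID4 was the gene with the largest rise, with 8.79 and 8.58 with glucose and 6.24 and 6.41 without it (2.36 ± 0.097, adjusted p = 1.26e-06, limma). ID1 (1.17 ± 0.095), ID2 (0.67 ± 0.098) and ID3 (0.52 ± 0.076) followed at smaller sizes. The ligand BMP4 (1.37 ± 0.082) and the receptor BMPR2 (1.18 ± 0.13) were higher, and the secreted antagonists GREM1 (-1.18 ± 0.14) and FST (-1.07 ± 0.11) were lower. Of 21 Wnt genes, 12 were higher and 1 lower (median 0.41). The feedback genes AXIN2, with 6.63 and 6.87 with glucose and 5.42 and 4.94 without it (1.57 ± 0.16), RNF43, with 8.07 and 8.31 with glucose and 6.20 and 6.03 without it (2.07 ± 0.098), and ZNRF3 (1.59 ± 0.09), which all restrain the pathway they respond to, were at the top, and the receptors LRP6 (1.05) and FZD7 (0.83) were higher. DKK1, a secreted inhibitor, was not called (-0.09, 95% interval -0.25 to 0.07), and AXIN1, the paralogue of AXIN2, was lower (-0.40 ± 0.09). The insulin and IGF axis was mixed, with 4 of 12 genes higher and 5 lower (median -0.31). There, IGFBP1 was lower (-1.92 ± 0.1), while IRS1, an adaptor of both receptors, was higher (1.25 ± 0.076).

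**Figure D4:**
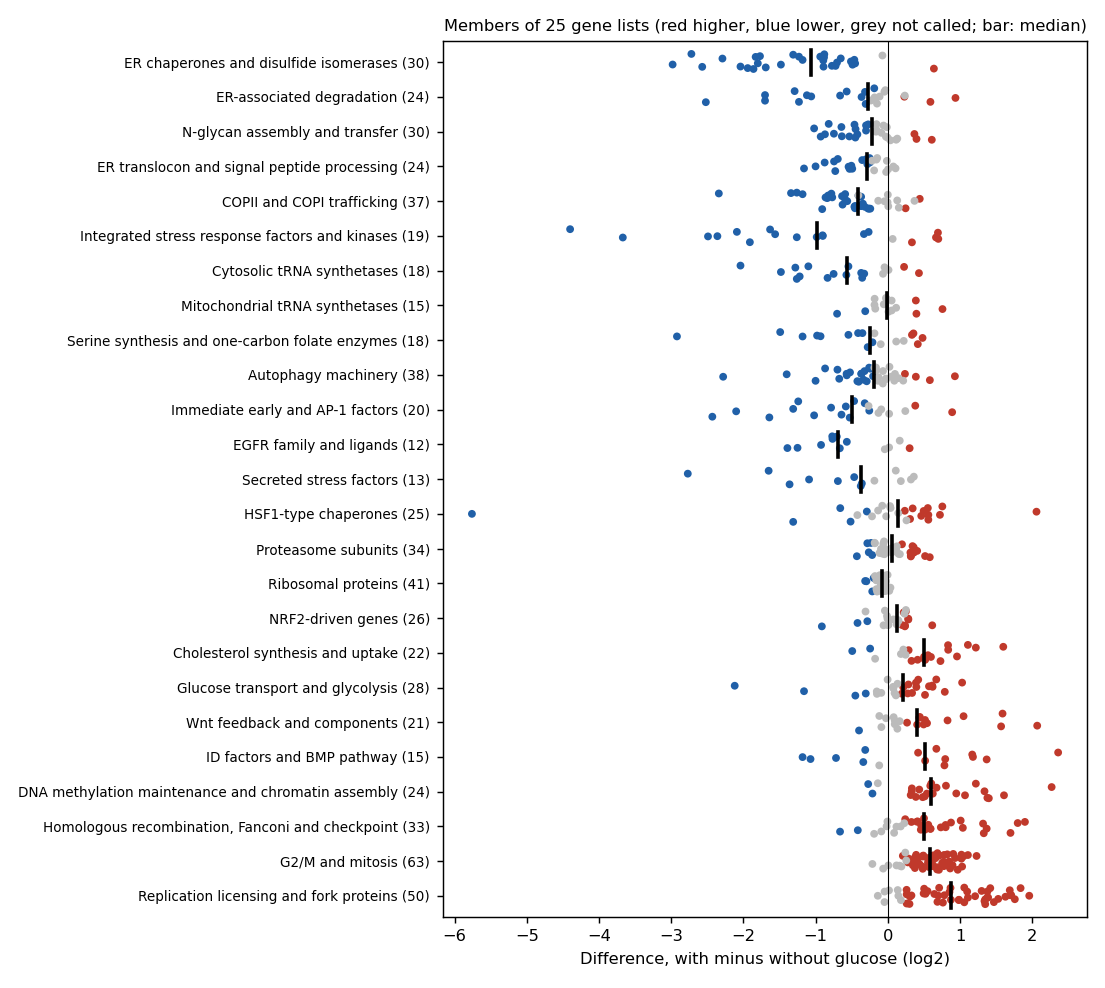
Difference with minus without glucose (log2, x axis) of each tested member of the named gene lists (y axis, tested members in parentheses), red where called higher, blue where called lower and grey where not called, with a bar at the median. ER chaperones (median -1.06) and replication genes (median 0.87) lie to opposite sides, while ribosomal proteins (median -0.07) sit near 0.

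Ranked by size over all genes, the 20 largest falls held genes beside the stress factors and chaperones. NIBAN1, a stress-responsive gene, read 11.02 and 11.07 without glucose and 6.96 and 6.88 with it (-4.13 ± 0.085), and RAB39B, a small GTPase of vesicle traffic, read 9.31 and 9.16 without glucose and 5.11 and 5.25 with it (-4.06 ± 0.093). BEX2 (-3.31 ± 0.083) and BEX4 (-3.56 ± 0.11), small proteins encoded on the X chromosome, were lower. The peptide hormone gene SPX (-2.89 ± 0.1), SNORC (-2.85 ± 0.1), SLFN5 (-2.62 ± 0.069), CALCB, which encodes a calcitonin gene-related peptide (-2.59 ± 0.16), and the antisense transcript EML2-AS1 (-2.94 ± 0.15) completed the genes outside the lists, with LAMP3 (-2.79 ± 0.24), a lysosomal protein of the stress response, and BHLHA15, a factor of secretory cells (-2.50 ± 0.28). BEX4, LAMP3, CALCB and BHLHA15 ended below the filter with glucose, where the scale may no longer follow a fall, as did FOS, and in all 57 of the genes called lower did so.

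The 20 largest rises held, beside the genes above, the Polycomb protein PCGF3 (2.15 ± 0.085), of which another probe set was called lower, the neuronal splicing factor NOVA1 (2.05 ± 0.11), ZNF367 (2.04 ± 0.13), the membrane adaptor ANK3 (6.61 and 6.87 with glucose and 4.90 and 4.57 without it, and a difference of 0.87 on another probe set without replicate 2 with glucose), the developmental factor LHX2 (1.89 ± 0.083), the iron exporter SLC40A1 (1.87 ± 0.1), the centriole protein CEP128 (1.86 ± 0.071) and the integrin ITGB8 (1.86 ± 0.15). The probe set annotated to the microRNA gene MIR3682 was also among them (2.21 ± 0.14). ANK3, ITGB8 and MIR3682 started below the filter without glucose, as did IFIT1 and LUM and in all 64 of the genes called higher. Such genes passed the filter through the arrays with glucose, and their differences are less certain in size. Mature microRNAs were not analysed here. In splicing, 13 of 25 factors were higher and 2 lower, with SRSF6 at 1.08 ± 0.11.

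Other lists went both ways. Of 26 genes driven by NRF2, a factor that is constantly active in this line, 8 were higher and 3 lower (median 0.13, 42.3% called against 45.1% of all genes), with CBR1 at 0.62 ± 0.061 and the transporter ABCC3 at -0.91 ± 0.065. TXNRD1, of the thioredoxin system, was not called (-0.04, 95% interval -0.18 to 0.10). Of 22 p53 targets, 8 were higher and 5 lower (59.1% called, median 0.04). Of 28 interferon-stimulated genes, 7 were higher and 6 lower (46.4% called), with IFIT1 (1.44 ± 0.13) and IFI16 (-1.29 ± 0.076) at the ends. 

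**Figure D5:**
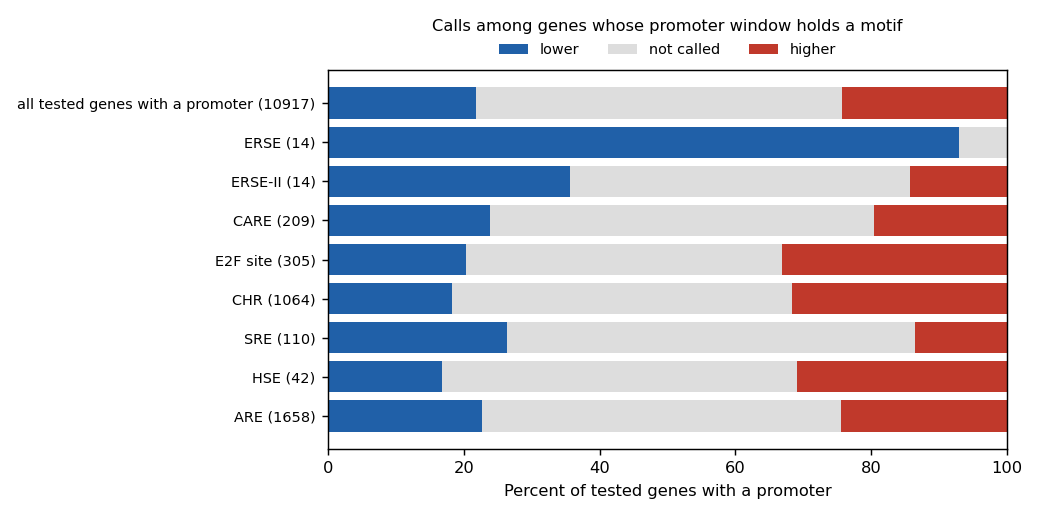
Percent (x axis) of tested genes called lower (blue), not called (grey) and called higher (red) among all 10917 tested genes with a promoter window and among those whose window holds each motif (y axis, genes in parentheses). The row of the ER stress element (ERSE) is blue for 13 of its 14 genes, and the rows of the antioxidant element (ARE, 22.6% lower) and of all genes (21.8% lower) are alike.

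The heat shock element, searched as GAA, TTC and GAA with 2 free bases between each, stood in 0.385% of the windows of tested genes and in 5 of 22 of the heat shock list, among them HSPA6, which was lower, and DNAJA1 and DNAJB6, which were higher. The antioxidant element, TGACNNNGC, stood in 15.2% of tested windows and in 4 of 20 of the NRF2 list. Of all tested genes with the antioxidant element, 24.4% were higher and 22.6% lower.

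A gene with several tested probe sets was read from the brightest of them. Of 539 further probe sets of genes called at least 2-fold, 393 (72.9%) were called the same way, 126 were not called and 20 were called the other way. Over all tested probe sets, taken 1 by 1, 42.8% were called. With 2 arrays against 2 an exact two-sided permutation test of a single gene cannot go below 0.333, so each call rests on the spread shared over the fit.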

How the data were processed

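The data are the deposited log2 signals of 8 Affymetrix arrays (54675 probe sets), used as the authors deposited them. Base 2 was inferred from their range (1.98 to 14.7, array medians 4.97 to 5.01). Background correction, summarization and normalization are not stated in the labels or files. Per the labels' protocols, RNA was isolated with RNeasy columns and labelled with biotin by the standard Affymetrix procedure.

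Probe sets were named from the platform annotation supplied with the table, with names checked by Entrez identifier (41037 of 41091 matched). Probe sets whose mean over the 4 control siRNA arrays was below the 40th percentile (log2 4.80) were left out, and the brightest probe set of each gene was kept, which gave 13587 of 19775 genes. An 8-array limma fit (limma 3.58.1, R 4.3.3) with a mean per group had 4 residual and 4.35 prior degrees of freedom. Tests were two-sided with Benjamini-Hochberg adjustment. The median SE was 0.0835, and precision is limited by the number of arrays. On simulated arrays with 200 changed genes, the fit recovered 71.6% of 1.5-fold and 93.7% of 2-fold changes, and 0% of 1.2-fold changes. The data held 6125 called genes, for which the adjustment is less strict, so these shares do not carry over to them.

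The members and lists were chosen with earlier results of these data known. The text names the 20 largest rises and falls, the members of each list with the smallest p (up to 4) or called against its majority, members of small families, and a few members chosen after their values were seen. Lists are given by counts and medians, without a set test. Motifs were searched in RefSeq promoter windows. Alternatives were 2 normalizations, other filters and probe set rules, a trended prior, array weights, a fit of 4 arrays, a replicate block, a 1.5-fold minimum, each array left out, and motifs on the gene's strand alone.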

Additional observations from a re-analysis of the deposited data

How the results depend on the processing

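The counts of called genes stayed within 1.5 times of their values under the alternatives tried, except a minimum change of 1.5-fold in the test itself. That minimum left 360 genes higher and 356 lower, and 95 of the 293 named genes lost their call. Counts of called members in the lists were less stable. Under that minimum 106 of them moved beyond 1.5 times and 12 did not. Without probe sets shared between transcripts, where 10607 genes were tested, 48 moved and 70 did not. Leaving out each array in turn gave 2444 to 2715 genes higher and 2220 to 2598 lower, and at least 2-fold 272 to 325 higher and 271 to 319 lower. In those fits the lone array of a medium is assumed to vary like the other groups. Same-numbered arrays did not deviate together across genes (correlation 0.043). Whether their cultures were handled together is not in the labels and was not tested. A fit with the replicate number as a block gave 3161 higher and 2903 lower. Read on the gene's own strand alone, the response element stood in 6.67% in place of 33.3% of tRNA synthetase windows and in 2.11% in place of 5.91% of those of genes at least 2-fold lower, and the E2F site in 20.9% in place of 37.2% of replication windows. The ER stress element then stood in 7 in place of 13 lower genes and in 11.1% in place of 22.2% of ER chaperone windows, since fewer strands were read. Of the 293 genes named, 191 could be tested under each alternative other than that minimum. Of these, 179 kept their side of the threshold in all of them, and the called genes among the 179 kept their direction. For genes not called the direction was not compared, and some changed sign, such as BAK1 (-0.11 to 0.02 with each array left out). The others lacked a value in places, mostly without probe sets that are shared between transcripts, where 204 had one, or with the filter at the 60th percentile, where 275 did. No called value among those obtained changed sign.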
